A study of Rattus norvegicus with 9 samples.

Results

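The peripheral myelin genes described here were Mbp, Pmp22, Mag, Prx, Mal, Egr2, Pmp2 and Cnp. They were taken by gene symbol from the gene table of an RNA-Seq study of rat dorsal root ganglion (DRG), and all 8 were found among its 20194 genes. The study compared DRG of 3 sham, 3 SNI and 3 SNI + G15 samples from adult male Sprague-Dawley rats. In spared nerve injury (SNI) the tibial and common peroneal branches of the sciatic nerve are ligated and cut and the sural branch is left, and sham rats were the uninjured comparison. SNI + G15 rats also received G15, an antagonist of the G protein-coupled estrogen receptor GPER, in DMSO through an intrathecal catheter implanted on day 5 after SNI, with drug given for 24 h. The labels name both the sham and the SNI samples as controls of the G15 samples and do not say whether those rats had a catheter or vehicle, so G15 and its delivery cannot be told apart. The paper names day 5 after SNI for sampling as well as for drug. The day on which the ganglia of each group were taken is not settled. A difference in days after injury between SNI and SNI + G15 therefore cannot be told apart from G15 either. No transgene or deletion was named, and the methods give 3 rats per group, while a supplementary list of animals gives more, so whether each library is 1 rat is not settled.

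Peripheral myelin is a spiral of Schwann cell membrane wrapped around larger axons. Its compact layers are held together by adhesive and basic proteins, while adhesion molecules face the axon and scaffold proteins anchor the outer membrane to the basal lamina. Schwann cells build it under the transcription factors Sox10 and Egr2 and need large amounts of sterol and galactolipid, and after nerve injury those that lose contact with the axon are known to lower myelin genes and to turn on a repair programme. A DRG contains neuron cell bodies wrapped by satellite glia as well as stretches of myelinated axons, so it includes myelinating Schwann cells as one cell type among many.

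The libraries held between 18484557 and 18756736 estimated reads. Libraries of one group differed by more than sampling noise in every pair, with a chi-square per degree of freedom of 1.57 to 1.72 among SNI libraries, 2.75 to 3.75 among sham libraries, and 1.98 between SNI + G15 replicates 1 and 2. SNI + G15 replicate 3 stood apart from those other 2 libraries (6.93 and 7.83). For SNI + G15 against SNI, the counts called among members and in the lists of myelin biology are therefore also given without it. Counts of the cell type marker lists, and those of SNI + G15 against sham, are given only with it. The injury was visible in the data, where 8 of 8 neuronal injury genes, among them Npy, Sprr1a and Atf3, were higher after the injury (median log2 fold change 4.03). The Schwann lineage was clearly measured, since the FPKM of S100b lay between 661.9 and 851.1 and that of Sox10 between 62.9 and 81.8 over all libraries. Oligodendrocytes, the myelinating cells of the brain and spinal cord, share several of these myelin genes, and their list of 12 markers was partly detected. Its genes Opalin (at most 0.28 FPKM in any library), Olig2 (at most 0.16) and Olig1 (at most 0.58) were near 0, and 6 of the 12 stayed below an FPKM of 1. The other 6 included Mog (at most 3.02), Hapln2 (at most 4.28), Mobp (at most 4.71), Myrf (4.28 to 7.23) and Cldn11, which had 18.8 to 20.8 FPKM in sham.

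FPKM, the number of sequenced fragments scaled for transcript length and library size, corrects for length, so levels of different genes can be set side by side. In sham DRG the order by mean FPKM was Pmp22 (1264 ± 13.6, SD, n = 3), Mbp (938.9 ± 20.9), Pmp2 (117.3 ± 10.2), Prx (109.1 ± 3.73), Cnp (93.9 ± 2.24), Mal (80.5 ± 4.63), Mag (9.50 ± 0.474) and Egr2 (4.71 ± 0.395). Only Pmp2 and Prx, as neighbours in that order, overlapped between libraries. In SNI the order changed. Cnp moved up to the third place at 95.1 ± 2.74, Pmp2 moved down to the sixth at 30.9 ± 2.38, and Mag (5.83 ± 0.133) and Egr2 (5.53 ± 0.458) overlapped. In SNI + G15 Egr2 (6.40 ± 0.275) lay above Mag (5.54 ± 0.424) in every library, and the other 6 kept the order they had in SNI. Over all 9 libraries the estimated counts behind these values were lowest for Mag (252 to 487) and Egr2 (257 to 381), and those of every member were whole numbers.

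The summed FPKM of the 8 genes was 2618 ± 43.7 (SD, n = 3) in sham. It was 1534 ± 10.5 in SNI and 1703 ± 20.7 in SNI + G15. They took 0.522% to 0.535% of the reads in a sham library, 0.310% to 0.314% in an SNI library and 0.342% to 0.352% in an SNI + G15 library. The summed level in SNI was thus below that of both other groups in every library, and Pmp22 and Mbp made up most of it in each group. In whole tissue, fewer myelinating cells and less RNA per cell cannot be told apart.

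**Figure D1:**
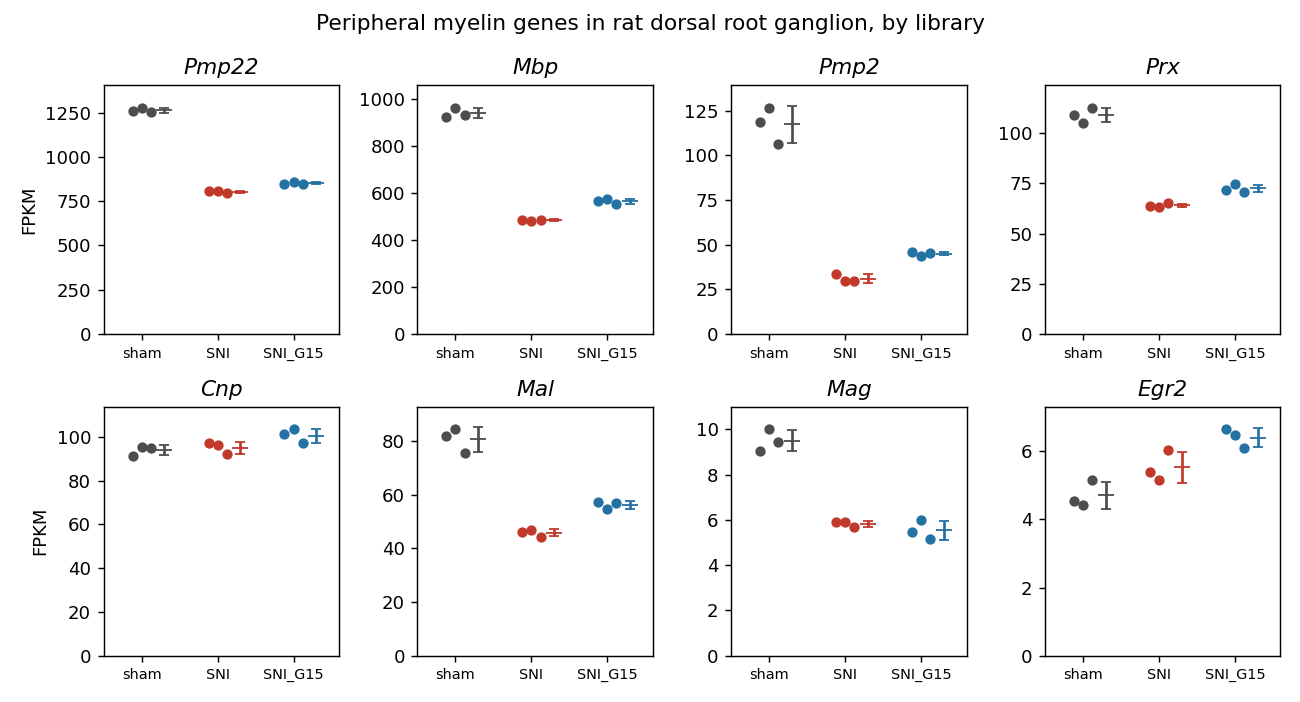
FPKM of the 8 peripheral myelin genes in each library, with linear axes from 0, for sham (grey), SNI (red) and SNI + G15 (blue); points are libraries, and the bar beside them is the mean with its SD (n = 3). Mbp, Pmp22, Prx, Mal, Pmp2 and Mag sit lower in every SNI than in every sham library, while Cnp lies between 91.3 and 103.5 in all groups and the mean of Egr2 is lowest in sham.

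The first comparison asked how the nerve injury itself bears on these genes. Of the 8 genes, 6 were lower in SNI than in sham and 0 were higher, at an adjusted p below 0.05 in the quasi-likelihood test of edgeR, adjusted by Benjamini-Hochberg over 14305 genes. Of all tested genes, 45.7% were called in either direction, 22.4% as lower and 23.3% as higher. The 6 that fell were the structural genes Mbp, Pmp22, Pmp2, Mal, Prx and Mag, and the 2 that were not called were Egr2 and Cnp. The median log2 fold change of the 8 was -0.76, beside 0.0010 over all tested genes. All 6 kept their call under each of 16 other ways of processing the data.

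Pmp2, a fatty acid-binding protein of peripheral myelin, fell the most. Its FPKM was 118.6, 126.8 and 106.5 in the sham libraries and 33.65, 29.5 and 29.6 in the SNI libraries. No SNI library came near a sham library, and the mean stood at 26.3% of sham. The log2 fold change was -1.95 (SE 0.074, adjusted p = 1.05e-08 in edgeR).

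Mbp encodes myelin basic protein, which holds the cytoplasmic faces of compact myelin together. Its FPKM was 923.3, 962.7 and 930.7 in sham and 484.9, 478.9 and 485.8 in SNI, so the groups were far apart and the SNI libraries lay close together. Mbp fell by 0.98 on the log2 scale (SE 0.029, adjusted p = 1.56e-09 in edgeR). Pmp22, a small membrane protein of compact myelin whose gene dosage underlies inherited demyelinating neuropathy, had 1260, 1279 and 1253 FPKM in sham against 808.2, 805.3 and 795.9 in SNI. The groups did not overlap, and Pmp22 fell by 0.68 (SE 0.025, adjusted p = 8.49e-09 in edgeR).

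Mal, a proteolipid of myelin that takes part in sorting membrane lipids and proteins, went from 81.9, 84.3 and 75.3 FPKM in sham to 46.2, 46.8 and 44.3 in SNI. It fell by 0.84 on the log2 scale (SE 0.049, adjusted p = 2.77e-07 in edgeR), with no overlap. Prx encodes periaxin, a scaffold that couples the outer Schwann cell membrane to the basal lamina. Its FPKM was 109.2, 105.35 and 112.8 in sham and 63.55, 63.4 and 65.1 in SNI, a decrease by 0.80 on the log2 scale (SE 0.036, adjusted p = 4.27e-08 in edgeR). Mag, an adhesion molecule of the membrane that faces the axon, was the least abundant of the 6, at 9.06, 10 and 9.43 FPKM in sham and 5.90, 5.92 and 5.68 in SNI. It fell by 0.73 (SE 0.062, adjusted p = 4.79e-06 in edgeR). These 3 genes therefore ended between 56.9% and 61.4% of their sham means, as against 51.5% for Mbp and 63.5% for Pmp22.

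Cnp and Egr2 did not share this decrease. Cnp, a phosphodiesterase of the non-compact myelin layers, had 91.3, 95.4 and 94.96 FPKM in sham and 97.2, 96.2 and 92.0 in SNI, with overlapping groups. Its log2 fold change was -0.011 with a 95% interval of -0.096 to 0.075 (adjusted p = 0.842 in edgeR), an interval that leaves out a decrease of the size seen for Pmp22. Egr2, the transcription factor that drives myelin genes in Schwann cells, had 4.55, 4.42 and 5.16 FPKM in sham and 5.38, 5.16 and 6.04 in SNI. The SNI values were the higher ones apart from a tie at 5.16, but the difference of 0.19 (SE 0.081) did not pass the adjustment (adjusted p = 0.0849 in edgeR). It passed under 3 of the 16 alternatives, with adjusted p-values between 0.0346 and 0.289 over all of them. Without sham replicate 3 the difference was 0.25 (adjusted p = 0.0346 in edgeR).

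The FPKM of 6 of the 8 genes did not overlap between SNI and sham, beside 53.9% of all tested genes. The fall was not shared by every Schwann cell marker. Of 10 pan-Schwann markers 5 were higher and 1 was lower in SNI; the lower one was the calcium-binding protein S100b (log2 fold change -0.34, adjusted p = 6.98e-06 in edgeR), the most abundant of the list. Sox10, the lineage factor that works with Egr2, had 62.9 to 68.8 FPKM in sham and 68.1 to 72.4 in SNI (log2 fold change 0.074, adjusted p = 0.219 in edgeR). The summed level of the 10 markers was 1152 to 1179 FPKM in sham and 1022 to 1046 in SNI. Of 8 markers of non-myelinating Schwann cells 5 were higher and 1 lower.

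Lists of other cell types moved with the injury at the same time, and their part in these results was not tested. Macrophage markers were higher for 9 of 10 genes, and their summed FPKM went from between 178.9 and 196.6 in sham to between 391.97 and 404.03 in SNI. Markers of neurons with myelinated fibres were lower for 8 of 10 genes, of which the neurofilaments Nefl, Nefm and Nefh were the most abundant, and higher for 1 (Spp1, 0.90), and their summed FPKM went from between 9367 and 9609 to between 6633 and 6899. Of 10 general neuron markers 3 were higher and 3 lower. The 6 tested of 12 oligodendrocyte markers gave 1 higher and 2 lower, with a sum of 33.5 to 37.7 FPKM in sham and 24.1 to 28.0 in SNI, with Cldn11 as the most abundant. The 3 tested of 8 astrocyte and spinal cord markers gave 2 lower, with sums of 7.69 to 8.35 and 4.15 to 5.33. Cldn11 fell by 1.13 on the log2 scale (adjusted p = 1.25e-07 in edgeR) and Gjb6, of the second list, by 1.31 (adjusted p = 3.33e-05 in edgeR). The 1 higher oligodendrocyte marker was Myrf (0.61). How much oligodendrocytes and astrocytes added to the myelin gene levels was not tested. Of 6 erythroid genes 6 were higher.

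The second comparison asked how the myelin genes of injured rats differed once G15 had been given. Of the 8 genes, 5 were higher in SNI + G15 than in SNI and 0 were lower, where 15.2% of all tested genes were called in either direction, 7.98% as higher and 7.25% as lower. The 5 were Pmp2, Mal, Mbp, Prx and Pmp22. The median log2 fold change of the 8 was 0.21, beside 0.0063 over all tested genes. Pmp2, Mal and Mbp kept their call under all 16 alternatives, Prx under 13 and Pmp22 under 3.

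Pmp2 differed the most here as well. Its FPKM was 33.65, 29.5 and 29.6 in SNI and 45.8, 43.9 and 45.2 in SNI + G15, which puts every SNI + G15 library above every SNI library. The log2 fold change was 0.55 (SE 0.062, adjusted p = 0.000836 in edgeR). The treated mean was 38.3% of sham. Mal had 46.2, 46.8 and 44.3 FPKM in SNI and 57.3, 54.5 and 56.9 in SNI + G15, which differs by 0.31 on the log2 scale (SE 0.044, adjusted p = 0.00249 in edgeR). Mbp had 484.9, 478.9 and 485.8 FPKM in SNI and 566.1, 574.3 and 552.8 after G15, a log2 fold change of 0.24 (SE 0.031, adjusted p = 0.00152 in edgeR). For neither gene did the groups overlap, and both stayed well below sham, at 69.8% and 60.1% of its mean.

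Prx and Pmp22 differed less. Prx had 71.9, 74.7 and 70.9 FPKM in SNI + G15, all above the SNI libraries, with a log2 fold change of 0.19 (SE 0.037, adjusted p = 0.0109 in edgeR). The call was lost without SNI replicate 1 (adjusted p = 0.0569) and without SNI replicate 2 (adjusted p = 0.0637), with almost the same fold change. Pmp22 had 848.6, 860.9 and 848.7 FPKM in SNI + G15. That is 6.17% above the SNI mean, with a log2 fold change of 0.10 (SE 0.029, adjusted p = 0.0479 in edgeR), and 13 of the 16 alternatives lost this call, with adjusted p-values up to 0.205. Leaving out any 1 of the SNI libraries, or SNI + G15 replicate 1 or 2, was enough to lose it (adjusted p between 0.0513 and 0.178).

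Mag, Egr2 and Cnp were not called. Mag had 5.47, 5.99 and 5.15 FPKM in SNI + G15, overlapping SNI, and its log2 fold change of -0.082 had a 95% interval of -0.24 to 0.077 (adjusted p = 0.453 in edgeR). Egr2 had 6.64, 6.46 and 6.10 FPKM in SNI + G15, just above the highest SNI library at 6.04, and its log2 fold change of 0.24 (SE 0.070) narrowly missed the threshold (adjusted p = 0.0526 in edgeR). Cnp had 101.2, 103.5 and 97.0 FPKM, and its log2 fold change of 0.093 had a 95% interval of -0.0011 to 0.19 (adjusted p = 0.16 in edgeR). The FPKM of 6 of the 8 genes did not overlap between these groups, beside 38.3% of all tested genes. Without SNI + G15 replicate 3, which stood apart, 6 genes were higher, Egr2 being added (log2 fold change 0.26, adjusted p = 0.0414 in edgeR).

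Transcript length moved with this comparison. Over all tested genes, put into 5 bins of equal size by effective length, the median log2 fold change of SNI + G15 against SNI was 0.16 in bin 1 (shortest), 0.061 in bin 2, 0.011 in bin 3, -0.033 in bin 4 and -0.11 in bin 5 (longest). Pmp2 was in bin 1, Mbp and Pmp22 in bin 2, Mag, Mal and Cnp in bin 3, Egr2 in bin 4 and Prx in bin 5. With offsets that take out this dependence on length, a step added after the data were seen, the log2 fold change was 0.46 for Pmp2, 0.29 for Mal, 0.20 for Mbp, 0.27 for Prx and 0.26 for Egr2, all called, and 0.051 for Pmp22, which was not (adjusted p = 0.205 in edgeR). The count of higher genes was again 5, with Egr2 in the place of Pmp22.

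Lists of other cell types moved here too, and their part in these results was not tested. Fibroblast markers were higher for 8 of 8 genes, and their summed FPKM went from between 461.7 and 463.4 in SNI to between 630.9 and 654.0 in SNI + G15. Erythroid genes were lower for 6 of 6. Of the 6 tested oligodendrocyte markers 2 were higher and 0 lower, with a median log2 fold change of 0.24. These were Cldn11 (0.50, adjusted p = 0.00302 in edgeR) and Sox8 (0.40), which kept its call under 7 of the 16 alternatives. Of the 3 tested astrocyte and spinal cord markers 1 was higher, Gjb6 (0.78, adjusted p = 0.0149 in edgeR), and 0 lower, with a median of 0.27. The pan-Schwann markers summed to 1090 to 1122 FPKM, above SNI and below sham, with 1 of 10 higher (Cdh19, a cadherin of Schwann cell precursors). Non-myelinating Schwann markers summed to 2071 to 2136 FPKM in SNI and 2861 to 3061 in SNI + G15, with 2 of 8 higher, the lipocalin Apod (0.73) and the filament gene Gfap (0.47), and 1 lower, Ncam1 (-0.25). The sum followed Apod, which went from between 1430 and 1498 FPKM to between 2250 and 2450, whereas the median log2 fold change of the list was -0.11.

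The third comparison set the treated injured ganglia against sham, and shares its samples with both others. Of the 8 genes 6 were lower, 1 was higher and 1 was not called, where 43.2% of all tested genes were called in either direction, 21.9% as lower and 21.4% as higher. Log2 fold changes were -1.42 for Pmp2 (SE 0.068), -0.83 for Mag (SE 0.077), -0.77 for Mbp (SE 0.040), -0.63 for Prx (SE 0.048), -0.61 for Pmp22 (SE 0.037) and -0.56 for Mal (SE 0.056), all called in every alternative. Egr2 was the higher one at 0.40 (SE 0.076, adjusted p = 0.00204 in edgeR), and its 4.42 to 5.16 FPKM in sham lay fully below the 6.10 to 6.64 in SNI + G15. Cnp was not called (log2 fold change 0.060, 95% interval -0.049 to 0.17, adjusted p = 0.354 in edgeR), although its values did not overlap. All 8 genes had values that did not overlap, beside 52.9% of all tested genes. Thus Mal, at 69.8% of its sham mean, and Pmp2, at 38.3%, marked the ends of the range among the 6 genes still below sham.

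**Figure D2:**
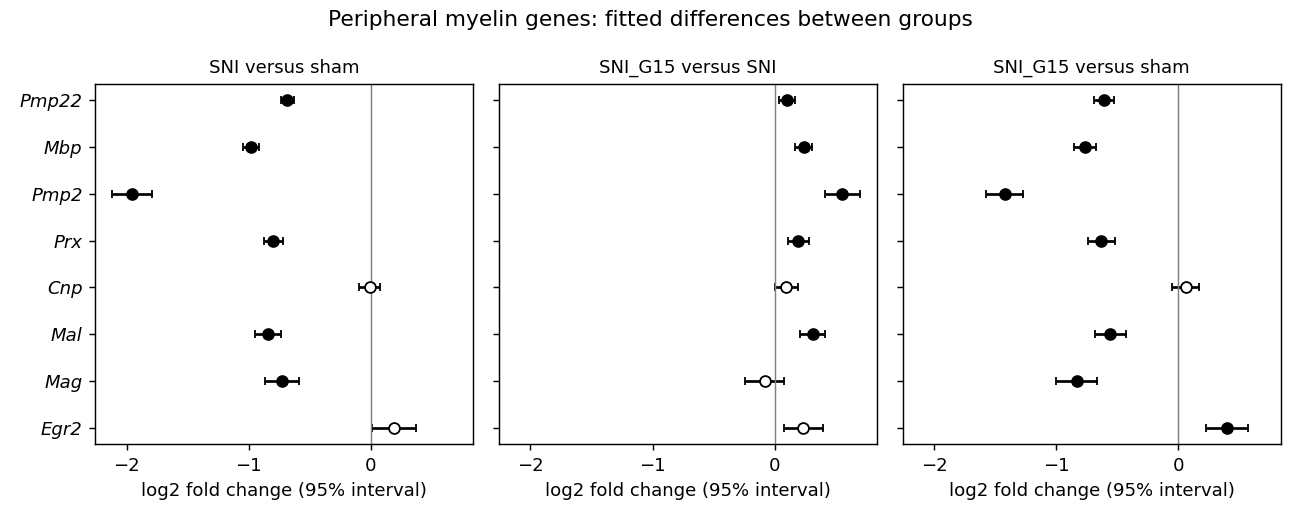
Fitted log2 fold changes of the 8 genes in the 3 comparisons, with 95% intervals (x axis, 3 libraries per group); filled points have an adjusted p below 0.05 in edgeR and open points do not. SNI versus sham runs from -1.95 for Pmp2 to 0.19 for Egr2, and SNI + G15 versus SNI from -0.082 for Mag to 0.55 for Pmp2.

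Several members have more than 1 annotated transcript. The files list 28 transcripts for the 8 genes, of which 21 could be tested. The reads are divided between them by estimation, and most transcript counts of genes with several transcripts were not whole, so these values are less certain than those per gene. In SNI against sham 8 transcripts were lower and 0 higher, where 10.3% of 25998 tested transcripts were called. After G15, 2 were higher than in SNI, the single transcripts of Mal (adjusted p = 0.0465) and Pmp2 (adjusted p = 0.0486 in edgeR), where 0.662% were called. Neither call held when all transcripts with at least 1 estimated count were tested. Against sham, 8 were lower in the treated group, where 10.4% were called.

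The 2 transcripts of Pmp22 differed in size of change. NM_017037.1 held 58.7% to 59.7% of the gene's FPKM in sham and 49.7% to 51.8% in SNI. Its mean FPKM went from 746.9 ± 14.4 to 407.1 ± 8.57, a log2 fold change of -0.90 (adjusted p = 0.000209 in edgeR). XM_006246584.3 went from 516.9 ± 3.25 to 396.1 ± 9.66, a log2 fold change of -0.41 (adjusted p = 0.00149 in edgeR). In SNI + G15 the first stood at 417.9 ± 7.12 and the second at 434.8 ± 1.81, so the less abundant one in sham became the more abundant one. The difference between the changes of these transcripts was not tested.

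Among 7 transcripts of Mbp, NM_017026.2 held 61.5% to 67.0% of the gene's FPKM in sham, and these shares were 56.5% to 57.3% in SNI and 54.0% to 60.9% after G15. Against sham its level in SNI fell by 1.16 on the log2 scale (adjusted p = 0.000258 in edgeR). NM_001025292.1 and NM_001025293.1 fell by 0.87 and 0.98. NM_001025294.1 had 36.8 ± 0.229 FPKM in sham and 41.96 ± 5.95 in SNI and was not called (log2 fold change 0.17, adjusted p = 0.446 in edgeR).

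**Figure D3:**
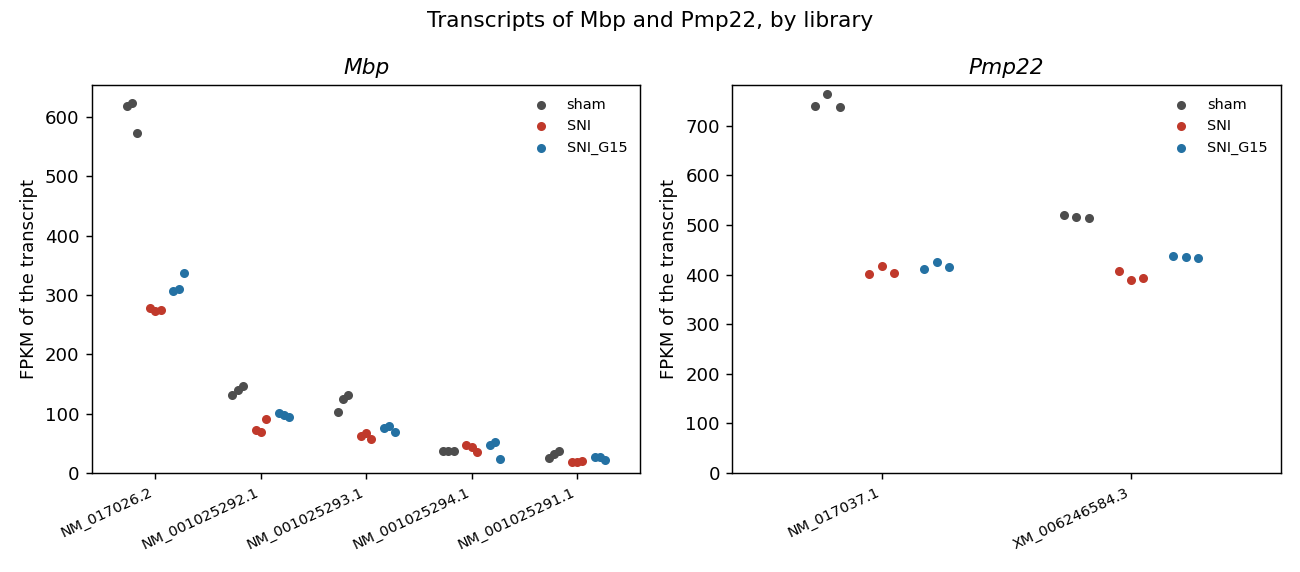
FPKM of the 5 most abundant transcripts of Mbp and of both transcripts of Pmp22 in each library (points), with linear axes from 0, for sham (grey), SNI (red) and SNI + G15 (blue). The leading transcript of each gene shows the widest gap between sham and the other groups, while NM_001025294.1 of Mbp overlaps between groups.

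The sequences just before the start sites of the members are shown as a description. Whether they bear on which members fell was not tested. RefSeq tables of the GRCr8 build held such a window for 7 of the 8 genes, Mbp with 2 starts. Windows of 250 bases were searched on both strands for GCGTGGG and GCGGGGG (motifs of Egr factors), ACAAAG and ACAATG (motifs of Sox factors), TATAAA and CCAAT. Of 33469 promoters, 3.68% held GCGTGGG, 8.14% GCGGGGG, 16.3% ACAAAG, 11.1% ACAATG, 12.9% TATAAA and 34.0% CCAAT. The windows of Pmp22 (chr10:48294682-48294931, plus strand), Prx (chr1:91914171-91914420, plus strand), Mal (chr3:135341424-135341673, minus strand), which fell, and Cnp (chr10:86011254-86011503, plus strand), which did not, are printed 5′ to 3′ with matches in capitals, ending at the base before the start.
Pmp22: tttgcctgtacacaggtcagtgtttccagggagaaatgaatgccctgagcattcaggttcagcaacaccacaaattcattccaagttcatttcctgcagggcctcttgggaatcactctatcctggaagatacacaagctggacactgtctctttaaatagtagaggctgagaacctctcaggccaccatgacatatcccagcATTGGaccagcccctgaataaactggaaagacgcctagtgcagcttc
Prx: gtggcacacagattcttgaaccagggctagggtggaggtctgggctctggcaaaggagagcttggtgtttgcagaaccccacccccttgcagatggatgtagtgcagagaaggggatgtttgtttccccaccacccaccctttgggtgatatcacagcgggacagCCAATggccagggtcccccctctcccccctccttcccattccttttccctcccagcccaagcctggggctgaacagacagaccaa
Mal: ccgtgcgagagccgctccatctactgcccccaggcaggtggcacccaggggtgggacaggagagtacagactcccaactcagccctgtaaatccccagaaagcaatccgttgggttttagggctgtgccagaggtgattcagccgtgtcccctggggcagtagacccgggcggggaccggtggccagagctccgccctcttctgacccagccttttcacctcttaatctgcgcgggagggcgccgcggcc
Cnp: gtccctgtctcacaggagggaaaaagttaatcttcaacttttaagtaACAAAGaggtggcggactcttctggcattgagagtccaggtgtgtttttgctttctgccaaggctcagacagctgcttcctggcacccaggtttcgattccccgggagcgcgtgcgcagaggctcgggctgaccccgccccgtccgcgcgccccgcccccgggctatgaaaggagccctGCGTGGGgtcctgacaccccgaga
The window of Cnp, which was not called in any comparison, held GCGTGGG 24 bases before the start and ACAAAG 203 bases before it. Those of Pmp22 and Prx held CCAAT, on the opposite strand in Pmp22 and on the same strand in Prx, and that of Mal held none of the 6 motifs. Of the windows that are not printed, that of Mag, which fell, held ACAAAG as Cnp did. The window of Egr2, which did not fall, held CCAAT as Pmp22 and Prx did. The starts of Mbp, which fell, held GCGGGGG at one and ACAAAG and ACAATG at the other. TATAAA was found in none of these windows. The shown windows of Pmp22 and Prx had 1 CpG each, that of Mal 14 and that of Cnp 16. A match is a description of the letters and does not show that a factor binds there.

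Genes of myelin biology outside these 8 were followed in lists. Of 15 genes listed as other myelin sheath proteins, 10 were lower and 2 higher in SNI than in sham, with a median log2 fold change of -0.27. The list was drawn broadly. It held the actin-nucleation gene Arpc1b and Kcna1, a potassium channel gene that is also counted with the node and paranode genes. Ncmap, a small protein of non-compact myelin, fell by 0.86, the phosphatase Dusp15 by 0.83 and Cldn19, a claudin of Schwann cell junctions, by 0.68. The 2 that rose were Arpc1b (0.76), a subunit of the complex that nucleates actin, and Emp1 (0.64), a membrane protein related to Pmp22. After G15, 10 of the 15 were higher than in SNI and 1 was lower, with a median of 0.18, or 0.096 with length offsets. Kcna1 had 43.3 to 44.7 FPKM in SNI and 27.3 to 36.9 in SNI + G15. The 11 calls became 5 without any 1 of the SNI replicates 1, 2 and 3, 7 without SNI + G15 replicate 2, and again 11 without SNI + G15 replicate 3. Gjb1, the gap junction protein connexin of myelinating Schwann cells, was higher by 0.58 (adjusted p = 0.00282), Pllp, plasmolipin, by 0.52 (adjusted p = 0.00223) and Emp1 by 0.41 (adjusted p = 0.00104 in edgeR). Gjb1 (8.57 to 10.1 FPKM against 7.97 to 8.59 in sham) and Pllp (41.7 to 49.9 against 43.9 to 46.8) overlapped sham in the treated ganglia.

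Of 22 tested genes of myelin lipid and sterol synthesis, 10 were higher and 5 lower in SNI than in sham, with a median of 0.082. Among the lower ones, Fa2h, which hydroxylates fatty acids, fell by 0.81 (adjusted p = 3.1e-07) and Ugt8, which makes galactosylceramide, by 0.70 (adjusted p = 3.91e-06 in edgeR). Lss, an enzyme of sterol synthesis, rose by 0.73 (adjusted p = 2.82e-07 in edgeR). After G15, 10 were lower than in SNI and 0 higher, with a median of -0.16. Without SNI replicate 1 there were 5 calls, without SNI replicate 2 or 3 there were 4, all lower, and without SNI + G15 replicate 3 there were 12 lower and 3 higher. Among the 10 were the desaturase Scd (-0.34) and Hmgcs1 (-0.28), an early enzyme of sterol synthesis.

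Of 16 transcription factors and cofactors of myelination, 7 were higher and 1 lower in SNI, with a median of 0.14, and 5 of these 8 calls were left without SNI replicate 2. Zeb2 rose by 0.52, the histone deacetylases Hdac2 and Hdac1 by 0.40 and 0.27 and Tead1 by 0.31, while Srebf1, which activates lipid synthesis genes, fell by 0.18. Between SNI + G15 and SNI only Nfatc4 was called (0.48, adjusted p = 0.0368 in edgeR), at 1.72 to 2.06 FPKM, and 9 of the 16 alternatives lost it, among them leaving out any 1 of the SNI libraries or SNI + G15 replicate 1. Without SNI + G15 replicate 3 there were 2 calls.

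Of 18 signals and receptors of myelination, 9 were higher and 4 lower in SNI, with a median of 0.17. Nrg1, whose membrane-bound form on axons instructs Schwann cells to myelinate, went from 31.8 to 33.8 FPKM in sham to 23.2 to 24.5 in SNI (log2 fold change -0.46, adjusted p = 1.86e-05 in edgeR). Lamb2, a laminin chain, also fell by 0.46. The kinase Tnik rose by 1.87, the laminin receptor subunit Itgb1 by 0.53 and the protease Adam17, which cuts neuregulin, by 0.51. After G15, 2 were higher than in SNI, Lamb2 (0.34) and the Schwann cell signal Dhh (0.25), and 2 were lower, Adam22 (-0.20) and Nrg1 (-0.19). A single call was left without any 1 of the SNI libraries, 2 without SNI + G15 replicate 2, and 6 were made without SNI + G15 replicate 3.

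Of 15 tested negative regulators of myelination and repair genes, 10 were higher and 3 lower in SNI, with a median of 0.31. Jun, which drives the repair programme in Schwann cells and is also induced in injured neurons, went from between 27.9 and 31.7 FPKM to between 96.4 and 101.1 (log2 fold change 1.73, adjusted p = 2.1e-09 in edgeR). Gap43, a growth cone gene of neurons that repair Schwann cells also use, rose by 1.32, Egr3 by 0.67 and Runx2 by 0.65, while the neurotrophin receptor Ngfr fell by 0.22. After G15, 3 were higher than in SNI, the hedgehog ligand gene Shh (0.23), Egr3 (0.21) and Hey2 (0.19), and the adhesion gene Ncam1 was lower (-0.25). Egr3 kept its call under 1 of the 16 alternatives. Of the 4 calls, at most 1 was left without any 1 of the SNI libraries or SNI + G15 replicate 1, and there were 2 without SNI + G15 replicate 2, while 4 were made without SNI + G15 replicate 3.

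**Figure D4:**
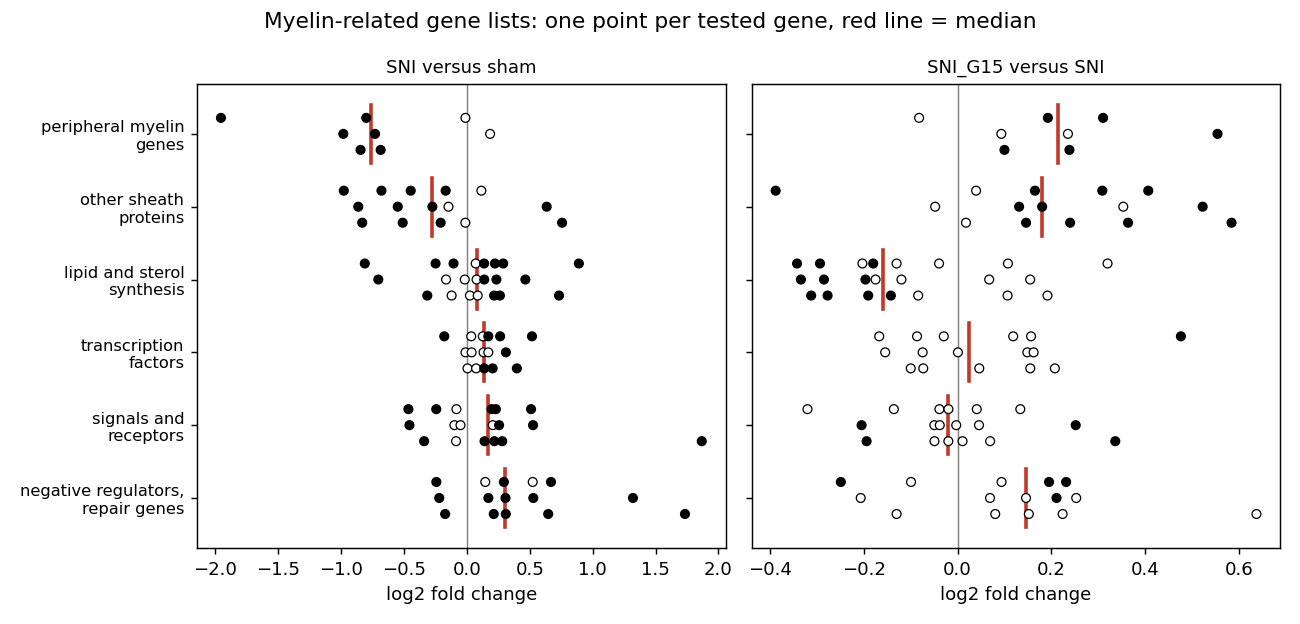
Fitted log2 fold change of each tested gene (points, x axis) in the 8 peripheral myelin genes and 5 lists of myelin biology (y axis), for SNI versus sham and SNI + G15 versus SNI; filled points have an adjusted p below 0.05 in edgeR, and red lines are medians. The myelin genes have a median of -0.76 on the left and 0.21 on the right, and lipid and sterol synthesis has 0.082 and -0.16.

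Genes with a profile most like the members were ranked by the root mean square difference, on the log2(FPKM + 1) scale, between their centred values and the mean profile of the 8 genes over 9 libraries. Among 6911 genes with a mean FPKM of at least 10 the nearest were Cldn19 (0.036), RGD1565033 (0.041), Akr1b1 (0.051), Mfap5 (0.056), Fa2h (0.060), Slc13a3 (0.063), Tsc22d3 (0.064), Rab37 (0.068), Rbp4 (0.074) and Shf (0.077), against a median of 0.306 over the candidates. The mean FPKM of Cldn19 was 46.9 ± 2.20 in sham. It was 29.5 ± 0.255 in SNI and 33.2 ± 0.463 with G15. Of the 8 genes themselves, Pmp22 (0.044) and Prx (0.054) lay nearest to their own mean profile and Pmp2 (0.513) and Egr2 (0.418) farthest from it.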

How the data were processed

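DRG RNA was sequenced from 9 libraries (3 per group) as paired reads of 150 bp. The authors deposited FPKM per gene and per transcript, scaled for library size and length, and estimated counts, which carry no normalization and can be fractional. The labels name a mouse genome build, while the deposited tables carry rat gene and transcript identifiers, so the build behind the values is uncertain; the aligner is not given in the sources used here. Columns named for a control were taken as sham, the group left by the other names. The labels' extraction protocol names another cell type and kit than the methods.

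After rounding of the estimated counts, edgeR 4.0.16 in R 4.3.3 (TMM, quasi-likelihood, only the libraries compared) tested the 14305 genes that reached an FPKM of 1 in any library; the script was tested on simulated data. Intervals used the degrees of freedom of that test. Alternatives used DESeq2 1.42.0, limma 3.58.1 (log2 of FPKM plus 1 or 0.1), other scalings and filters, all 9 libraries, a replicate block, each replicate left out and, added later, length offsets. The p-values measure the spread between 3 libraries a group. Members and the 21 gene lists were chosen with earlier results of these data known. Of each list of myelin biology, the genes with the smallest adjusted p were named (up to 5 in SNI against sham, up to 3 in SNI + G15 against SNI); Sox10, Nrg1 in SNI + G15 and others named beside counts were added after their values were seen. Some genes that the rule selects are not reported here.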

Additional observations from a re-analysis of the deposited data

How the results depend on the processing

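Over the 3 comparisons and 16 alternatives each, the log2 fold changes of the 8 genes gave 384 values, of which 356 kept direction and side of the threshold, 16 lost a call, 5 gained one and 7 changed sign. All 7 belonged to Cnp in SNI against sham, which was never called: 0.019 with limma at either pseudocount, 0.020 with library totals only, 0.0018 with length offsets, and -0.033 to 0.012 when single replicates were left out. In SNI + G15 against SNI the number of members called was 3 to 6 when single replicates were left out, and the number of genes called 893 to 2333. Of 9 same-numbered correlations of deviations 0 were above 0.1 (-0.13 to 0.069). A differently numbered pair, sham replicate 3 and SNI + G15 replicate 2, reached 0.18. With 3 libraries a group, these values cannot exclude that same-numbered samples were paired. With the replicate block, calls between SNI + G15 and SNI went to 3 members (Pmp22 and Prx lost) and 1292 genes, and there were 7 members in SNI against sham, Egr2 being added. With all transcripts of at least 1 estimated count, edgeR called 0 member transcripts in SNI + G15 against SNI (7 had an unadjusted p below 0.05), where fewer calls were also made over all transcripts (0.167%). The summed level in SNI was 1520 FPKM from counts per length with TMM library sizes. Other causes were not tested. For Mag and Egr2, with 252 to 487 and 257 to 381 reads per library, depth limits the precision.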

Other observations

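Node and paranode genes, which build the gaps between myelin segments and the junctions beside them, were lower for 12 of 17 genes in SNI against sham and higher for 0, with a median log2 fold change of -0.22. Kcnab2 and Kcna2, subunits of the potassium channels beside the paranode, fell by 0.54 and 0.59, Scn8a, the main sodium channel of nodes, by 0.38, Cntnap2 by 0.35 and the membrane skeleton gene Epb41l3 by 0.25. After G15, 2 were higher than in SNI and 6 lower; without any 1 of the SNI libraries 2 were higher and 2 lower, and without SNI + G15 replicate 3 there were 2 higher and 7 lower. The higher ones were genes expressed by Schwann cells, Gldn (0.61, adjusted p = 0.00016), which clusters sodium channels at nodes, and the adhesion gene Cadm4 (0.34, adjusted p = 0.00259 in edgeR). Gldn lay between 12.5 and 13.7 FPKM in sham, between 14.3 and 14.8 in SNI and between 21.4 and 22.8 with G15, so it stood above sham in the treated ganglia. Kcna2 was lower (-0.31, or -0.15 with length offsets). The median of the list was -0.14, and -0.043 with length offsets.

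Of 10 genes of inherited Schwann cell neuropathy outside the members, 4 were higher and 3 lower in SNI. Litaf rose by 1.17, from 20.2 to 22.01 FPKM in sham to 47.9 to 50.2 in SNI, and Fgd4 by 0.33. Ndrg1 fell by 0.37, Fig4 by 0.31 and Mtmr2 by 0.22. In SNI + G15 Ndrg1 was higher than in SNI by 0.31 (adjusted p = 0.000933 in edgeR), at 158.1 to 166.9 FPKM beside 166.8 to 169.2 in sham. Dst was lower by 0.18, and 0.0084 higher with length offsets. The 2 calls of this list became 1 without any 1 of the SNI libraries or SNI + G15 replicate 2, and 5 without SNI + G15 replicate 3. Satellite glia markers gave 4 higher and 1 lower of 10 in SNI, and 1 higher and 2 lower in SNI + G15 against SNI. Of 6 endothelial markers 1 was higher and 1 lower in each of these comparisons.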
